A study of Mus musculus with 3 samples.

Results

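Etv1, Etv4 and Etv5 encode the PEA3 group of ETS transcription factors. Their entries were found by gene symbol in 10x Genomics single-cell libraries from the cortex of newborn mice, and they are 3 of the 27998 gene identifiers that the 3 libraries have in common. The Emx1-Cre mutant (labelled EMX-Cre_MAP2K1/2-dcko) had both Map2k1 and Map2k2 floxed and carried a Cre driven by Emx1, which is active in the progenitors of the dorsal telencephalon and inherited by their progeny. The hGFAP-Cre mutant (labelled hGFAP-Cre_MAP2K1/2-dcko) had the same floxed genes with a Cre under the human GFAP promoter, which turns on in radial glia later in gestation. The control carried the floxed alleles and is labelled WT for genotype. All pups had received a ventricular injection of FlashTag, a dye that labels cells dividing at the ventricle, at embryonic day 18. On postnatal day 2 the dorsal cortex was dissected and dissociated with papain, and tdTomato-positive cells were sorted. Neither the number of animals nor the allele that carried tdTomato is given in the sources used here. There was 1 library per genotype and so no replicate. No test between genotypes was made, and every interval below covers counting error only.

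The PEA3 factors sit at the far end of the ERK pathway. Map2k1 and Map2k2 encode MEK1 and MEK2, the kinases that phosphorylate ERK, and ERK signalling both phosphorylates the PEA3 proteins and raises the transcription of their genes. Capicua, encoded by Cic, is known to hold these genes silent until ERK signalling removes it, and the ubiquitin ligase COP1, listed here as Rfwd2, marks the proteins for destruction. In the forebrain Etv1 is known as a marker of deep-layer pyramidal neurons and of olfactory bulb interneurons, and Etv4 and Etv5 as read-outs of FGF signalling in progenitors.

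The libraries held 13214 barcodes and 84016524 UMIs in the Emx1-Cre mutant, 13139 and 89917586 in the hGFAP-Cre mutant, and 11886 and 85480826 in the control. After filtering 12191 Emx1-Cre, 11991 hGFAP-Cre and 9519 control cells remained. The median kept cell had 4989 UMIs in the Emx1-Cre mutant, 5308 in the hGFAP-Cre mutant and 6427 in the control, and 43 to 54 barcode sequences were shared between any pair of libraries. Map2k1 was at 13.9 CPM in the Emx1-Cre mutant, 16.3 in the hGFAP-Cre mutant and 16.6 in the control, where CPM is the gene's UMIs over all UMIs summed for the cells named, on the usual scale. Map2k2 was at 216.8 CPM in the Emx1-Cre library, 214.3 in the hGFAP-Cre library and 196.4 in the control. These 3' tags need not lie in the deleted part of either gene, so neither deletion nor labels are checked by them. Xist, expressed from the inactive X chromosome of females, was at 0.122 CPM in the Emx1-Cre mutant, 0.958 in the hGFAP-Cre mutant and 1462 in the control, so sex and genotype cannot be told apart.

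On GRCm38, Etv1 (ENSMUSG00000004151) spans chromosome 12 from 38779380 to 38870484 on the plus strand. Etv4 (ENSMUSG00000017724) spans chromosome 11 from 101769742 to 101785371 on the minus strand, and Etv5 (ENSMUSG00000013089) spans chromosome 16 from 22381309 to 22439719 on the minus strand. A promoter window of Etv5 is shown because Etv5 had the largest differences in astroglia-like and upper-layer cells. It was also picked because the letters TGAATG, the core of the sequence that Capicua is known to bind, occur in it 3 times. This window lies within the gene span given above, while the other Etv5 window, at 22439521-22439820, lies over the annotated 5′ end of the gene. These are the 250 bases before the RefSeq start at chr16:22438369-22438618 of GRCm38.p6, read on the minus strand, 5′ to 3′, with the matches in capitals. CATTCA is the same motif on the other strand.

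Etv5: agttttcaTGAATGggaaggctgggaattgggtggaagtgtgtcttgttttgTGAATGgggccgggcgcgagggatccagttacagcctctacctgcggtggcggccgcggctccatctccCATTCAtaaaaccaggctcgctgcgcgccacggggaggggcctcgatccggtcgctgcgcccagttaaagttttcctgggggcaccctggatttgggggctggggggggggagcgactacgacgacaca

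Both forward matches are followed by gg, and the matches do not overlap. Of 32851 RefSeq promoter windows of 300 bases, 12.7% held TGAATG on either strand and 0.170% held it 3 or more times. The other Etv5 window and both Etv1 windows in the table held none. TGANTCA, the AP-1 motif, was in 7.81% of all windows and CCGGAA, the core ETS motif, in 14.9%, and neither was in any of these windows. The motifs were picked after the windows had been read, and a match says nothing about whether a factor binds there.

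Over all kept cells the 3 genes were lower in both mutants than in the control. Etv1 was at 27.6 CPM (95% interval 26.4 to 28.8) in the Emx1-Cre mutant, 20.5 (19.5 to 21.5) in the hGFAP-Cre mutant and 58.0 (56.3 to 59.7) in the control. Etv4 was at 10.6 CPM in Emx1-Cre, 5.19 in hGFAP-Cre and 28.7 in control cells, and Etv5 at 11.3 CPM in Emx1-Cre, 7.34 in hGFAP-Cre and 39.6 in control cells. For each gene the control interval lay above both mutant intervals. A gene is called lower or higher here from a 1.5-fold difference on, with 5 CPM added to both sides and at least 10 CPM in either library. By that rule all 3 were called lower in both mutants, against a background of 18.9% of 9555 genes in the Emx1-Cre mutant and 12.1% of 9425 genes in the hGFAP-Cre mutant. Such totals mix the makeup of the libraries with the level inside each cell type, so the genes are described cell type by cell type below.

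Cells were clustered without the ETS and ERK pathway genes among the variable genes, and clusters were named from markers, "-like" meaning only that. In the control the 3 genes were concentrated in glia and progenitors but with different outliers, as the plot of levels by cell group shows. Astroglia-like cells, a class with both astrocyte and radial glia markers, were 15.5% of cells in the Emx1-Cre mutant and held 68.6% of its Etv1, 88.8% of its Etv4 and 82.99% of its Etv5 UMIs. They made up 19.9% of the hGFAP-Cre mutant and held 33.3% of Etv1, 69.6% of Etv4 and 58.9% of Etv5 UMIs there. Among control cells they were 20.5% and held 45.7% of the control's Etv1 UMIs, 55.9% of its Etv4 UMIs and 54.9% of its Etv5 UMIs.

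Etv1 was highest in the control's deep-layer projection neuron-like cells, at 188 CPM (166 to 211), though only 47 such cells were kept. Multipotent progenitor-like cells came next at 122 CPM (112 to 134), followed by astroglia-like cells at 107 (103 to 112), olfactory bulb interneuron lineage-like cells at 104.5 (95.9 to 114) and oligodendrocyte precursor-like cells at 104 (79.6 to 134). The intervals of these last 3 overlap, and that of the multipotent progenitors overlaps the olfactory bulb and precursor intervals, so their order is not resolved at this depth. An unnamed cluster led by Dbx2 and Mfge8 was at 89.8 CPM (81.9 to 98.1). Mural-like cells, the contractile cells of vessel walls, were at 65.7 CPM from 15 UMIs, while microglia-like cells had 19.2 CPM and upper-layer projection neuron-like cells 13.1 CPM.

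Etv4 was the most restricted of the 3. In the control it was at 122 CPM (113 to 132) in the unnamed cluster led by Dbx2 and Mfge8, 81.7 (60.0 to 109) in oligodendrocyte precursor-like cells, 65.0 (61.5 to 68.7) in astroglia-like cells and 34.5 (29.0 to 40.8) in multipotent progenitor-like cells. The interval of the unnamed cluster lay above that of the precursors, whose interval overlapped that of the astroglia. Every other group was under 10 CPM in the control. The unnamed cluster had all 10 astrocyte markers raised and counted as astroglia when named by mean fold. It stayed unnamed, and outside the astroglia-like class, because markers of another class outnumbered its own among its 10 leading genes. Those genes included Egfr, the receptor of EGF, and Etv4 itself. The cluster held 29.6% of the control's Etv4 UMIs in 5.26% of the control's cells. It had 13 cells in the Emx1-Cre mutant and 3 in the hGFAP-Cre mutant, against 501 in the control, so no comparison could be made in it.

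Etv5 was at like levels in several of the control's glial and progenitor groups. It was at 88.6 CPM (66.0 to 117) in oligodendrocyte precursor-like cells, 87.8 (83.7 to 92.1) in astroglia-like cells, 86.8 (77.9 to 96.5) in multipotent progenitor-like cells and 74.7 (67.6 to 82.4) in the Dbx2 cluster. The first 3 intervals overlap, and the Dbx2 cluster lay below the astroglia. Deep-layer projection neuron-like cells were lower, at 28.0 CPM, as were microglia-like cells at 26.7 CPM. Olfactory bulb interneuron lineage-like cells had 17.6 CPM and upper-layer projection neuron-like cells 10.6 CPM. Excitatory intermediate progenitor-like cells were lower still, at 6.61 CPM. Cajal-Retzius-like cells, which secrete reelin at the surface of the cortex, gave the background. In that class of the Emx1-Cre mutant a UMI of Etv1 was in 0.567% of cells, of Etv4 in 0.496% and of Etv5 in 0.0709%. The shares were 1.60%, 0.80% and 0.533% for Etv1, Etv4 and Etv5 in the hGFAP-Cre mutant, and 0%, 0.935% and 0.935% in the control. The median such cell had 6112 UMIs in the Emx1-Cre mutant, 8936 in the hGFAP-Cre mutant and 18722 in the control.

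**Figure D1:**
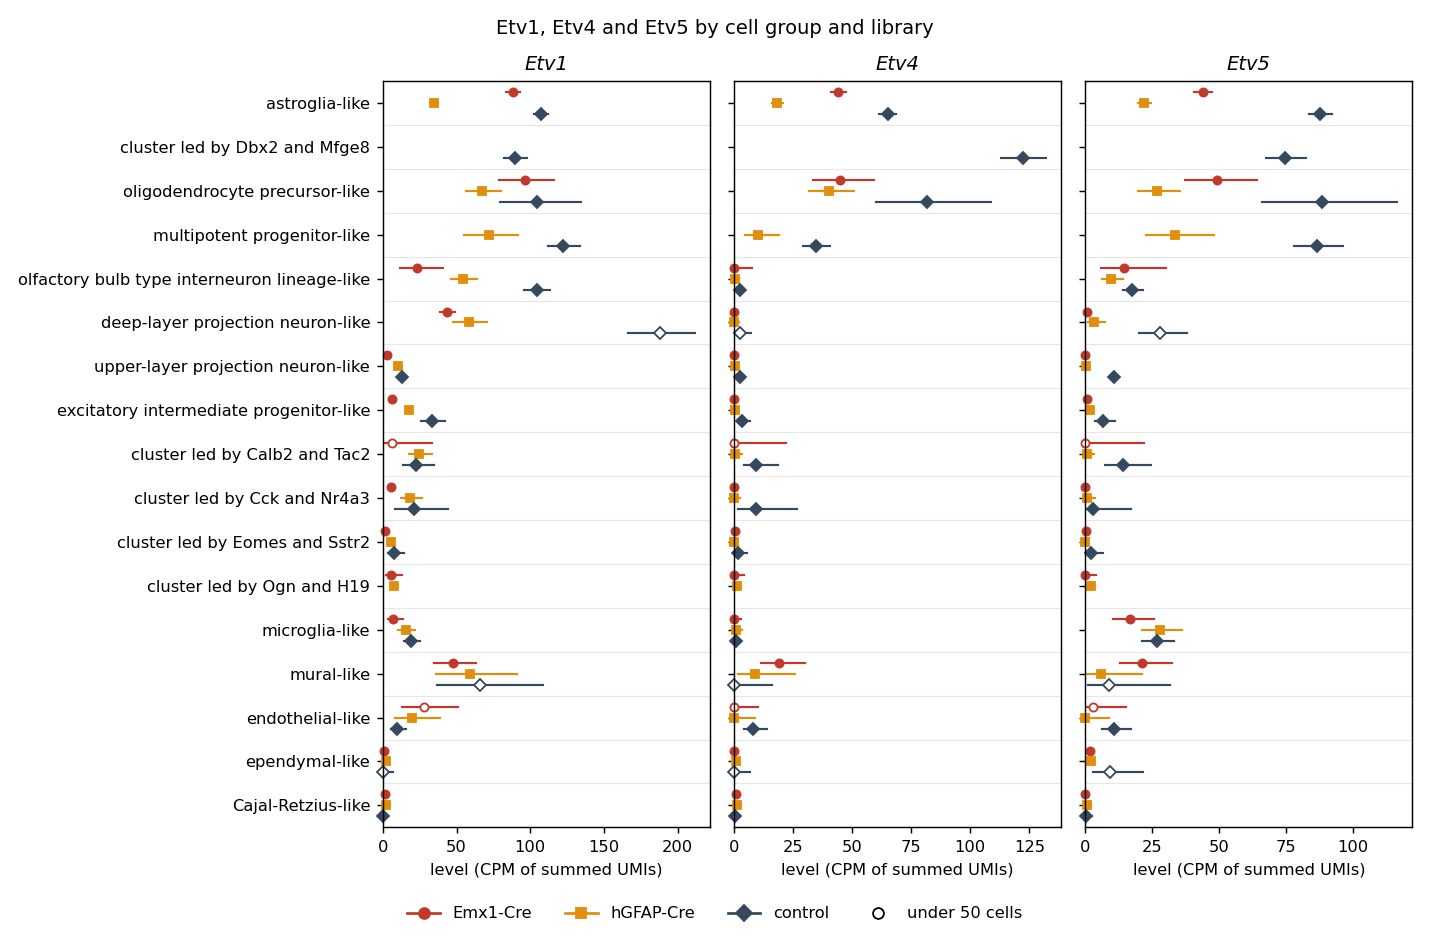
Level of Etv1, Etv4 and Etv5 (CPM, summed over the cells of each group) in the Emx1-Cre, hGFAP-Cre and control libraries, with exact Poisson 95% intervals. Open markers stand for groups under 50 cells, and groups under 20 cells are not shown. Etv4 is above 10 CPM in the control only in glial and progenitor groups, Etv1 reaches 188 CPM in the control's deep-layer neurons, and in astroglia-like cells each gene is lowest in the hGFAP-Cre library.

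In astroglia-like cells of the hGFAP-Cre mutant all 3 genes were lower, Etv5 by the most and Etv1 by the least. Etv1 was at 34.6 CPM (31.7 to 37.7) in the hGFAP-Cre mutant, against 107 (103 to 112) in the control, 3.09-fold lower (2.81 to 3.41). Etv4 was at 18.4 CPM (16.3 to 20.7) against 65.0 in the control, 3.54-fold lower (3.11 to 4.04), and Etv5 at 22.0 CPM (19.7 to 24.5) against 87.8, 3.99-fold lower (3.55 to 4.5). The intervals of mutant and control lay apart for each gene, and the interval of the fold of Etv5 lay above that of Etv1 and overlapped that of Etv4. The log2 ratios, with 5 CPM added to both sides, were −1.50, −1.58 and −1.78, and all 3 genes were called lower against a background of 15.5% of 8999 genes in that class.

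The pattern was uneven in astroglia-like cells of the Emx1-Cre mutant. Etv1 was at 88.3 CPM (83.8 to 93.1) in the Emx1-Cre mutant, a log2 ratio of −0.27 (−0.36 to −0.17) over the control. Etv4 was at 44.1 CPM (40.9 to 47.5) with a log2 ratio of −0.51 (−0.64 to −0.39), and Etv5 at 44.0 CPM (40.7 to 47.3) with −0.92 (−1.04 to −0.81). The intervals of the log2 ratios of the 3 genes do not overlap each other. Etv5 alone was called lower, 2.00-fold (1.83 to 2.19), where 31.9% of 8830 genes were called lower in the same cells and the median gene had a log2 ratio of −0.34. By the trimmed mean of M values (TMM), which shifts the whole comparison by −0.35, the ratios were 0.067 for Etv1, −0.19 for Etv4 and −0.60 for Etv5, so that Etv5 remained past the fold and Etv1 changed sign. Etv4 passed the fold in 10 of 17 alternative settings. Among these were other groupings of the cells, at −0.83 to −0.73, such as each library clustered alone. By median-of-ratios scaling the Etv5 ratio was −0.57, which ends its call. In the other groups compared the TMM shift ran from −0.22 to 0.06.

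The share of astroglia-like cells with at least 1 UMI gave the same order of libraries. For Etv1 it was 47.1% in the Emx1-Cre mutant, 17.0% in the hGFAP-Cre mutant and 55.5% in the control. Thinned to 3000 UMIs per cell, which removes the difference in depth (medians of 7688 UMIs in Emx1-Cre, 5479 in hGFAP-Cre and 7978 in control cells), it was 23.1% in the Emx1-Cre mutant, 9.23% in the hGFAP-Cre mutant and 26.3% in the control. For Etv4 the thinned share was 11.9% in the Emx1-Cre mutant, 3.65% in the hGFAP-Cre mutant and 16.3% in the control, and for Etv5 it was 12.1% in Emx1-Cre, 6.34% in hGFAP-Cre and 21.8% in control cells. Unthinned, Etv4 was in 28.7% of Emx1-Cre, 9.32% of hGFAP-Cre and 38.7% of control cells, and Etv5 in 28.6% of Emx1-Cre, 11.8% of hGFAP-Cre and 51.2% of control cells. These shares were above those of Cajal-Retzius-like cells in the same library.

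The astroglia of the 3 libraries were largely different cells. A cluster led by Prm1 and Ephx1 held 89.1% of the class in the hGFAP-Cre mutant, one led by Has2 and A2m held 66.8% in the Emx1-Cre mutant, and one led by Slco1c1 and Hopx held 71.0% in the control. Prm1 was left out of the genes used for clustering. Its tags may come from the tail of the hGFAP-Cre transgene and not the native gene, which was not tested. The summed level of the 10 astrocyte markers was 7105 CPM in the Emx1-Cre mutant, 11081 in the hGFAP-Cre mutant and 10217 in the control, and that of the 10 radial glia markers was 42589 CPM in Emx1-Cre, 28615 in hGFAP-Cre and 26676 in control cells. None of the astrocyte markers was at 0 in any library. With the 2 lists kept apart, so that only radial glia-like clusters entered, a choice made after the data were seen, the hGFAP-Cre log2 ratios were −0.54 for Etv1, −0.53 for Etv4 and −0.96 for Etv5, which ends the calls of Etv1 and Etv4. The part of this makeup in the differences was not tested beyond these values and those within clusters that follow.

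The low levels of the hGFAP-Cre mutant sat in the Prm1 cluster. There Etv1 was at 27.5 CPM (24.7 to 30.6), Etv4 at 11.03 (9.25 to 13.1) and Etv5 at 18.2 (15.9 to 20.8) over 2123 hGFAP-Cre cells. The 29 control cells of that cluster had 26.6 CPM of Etv1, 22.2 of Etv4 and 44.4 of Etv5, from 6, 5 and 10 UMIs. The intervals of Etv1 and Etv4 overlapped between the libraries, and that of Etv5 in the control, 21.3 to 81.6 CPM, lay just above that of the mutant.

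The Has2 cluster, which had at least 50 cells in each library, gave different values for the 3 genes. Etv4 was at 46.7 CPM (42.4 to 51.4) in the Emx1-Cre mutant and 56.6 (44.5 to 71.0) in the hGFAP-Cre mutant, against 110.25 (87.0 to 138) in the control, and it was called lower in both. Etv1 was at 83.7 and 52.1 CPM in the mutants against 63.0 in the control, and Etv5 at 39.3 and 30.2 against 43.0, with log2 ratios between −0.45 and 0.38 and no call. Within this cluster 16.5% of genes were called lower in the Emx1-Cre mutant and 17.0% in the hGFAP-Cre mutant. The control side rests on 62 cells.

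A cycling cluster led by Depdc1a and Hist1h2ap had over 100 cells in each library, with 614 Emx1-Cre, 111 hGFAP-Cre and 476 control cells. Etv1 was at 95.0 CPM in the Emx1-Cre mutant, 73.6 in the hGFAP-Cre mutant and 114 in the control, with log2 ratios of −0.25 and −0.60. Etv4 was at 40.9 and 44.95 CPM in the mutants against 79.35 in the control, with log2 ratios of −0.88 and −0.76. Etv5 was at 50.7 and 42.2 CPM against 85.8, with −0.71 and −0.94. All 3 genes were thus called lower in the hGFAP-Cre mutant, against 22.3% of all genes, and Etv4 and Etv5 in the Emx1-Cre mutant, against 25.2%.

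**Figure D2:**
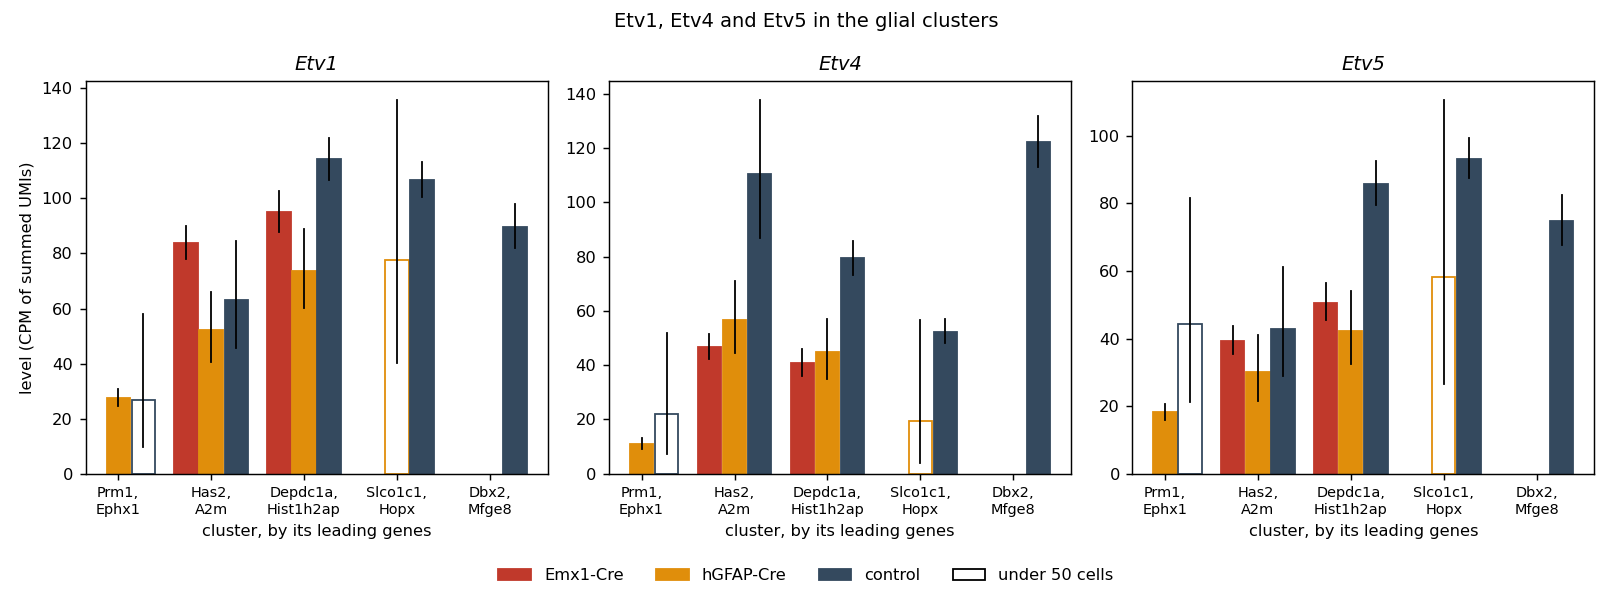
Level of Etv1, Etv4 and Etv5 (CPM with exact Poisson 95% intervals) within each glial cluster, per library. White bars mark under 50 cells, and clusters under 20 cells in a library are left out. Among the astroglia-like clusters with at least 50 hGFAP-Cre cells, the hGFAP-Cre values are lowest in the Prm1 and Ephx1 cluster, at 27.5 CPM of Etv1, 11.03 of Etv4 and 18.2 of Etv5, and Etv4 is highest in the control's Dbx2 and Mfge8 cluster, at 122 CPM.

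Dividing cells differed in number between the libraries, so levels were also split by them. Mki67 or Top2a, both expressed in division, had a UMI in 49.0% of astroglia-like cells in the Emx1-Cre mutant, 8.73% in the hGFAP-Cre mutant and 31.9% in the control. Among those cells Etv1 was at 88.8 CPM in the Emx1-Cre mutant, 64.3 in the hGFAP-Cre mutant and 110.6 in the control. Etv4 was at 40.6 CPM in Emx1-Cre, 43.9 in hGFAP-Cre and 75.6 in control cells, and Etv5 at 46.7 in Emx1-Cre, 35.2 in hGFAP-Cre and 87.2 in control cells. All 3 were called lower there in the hGFAP-Cre mutant (log2 ratios −0.74, −0.72 and −1.20, against 18.5% of genes), and in the Emx1-Cre mutant Etv4 and Etv5 were (−0.82 and −0.83, against 26.7%).

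Among cells without such a UMI the hGFAP-Cre mutant had 29.3 CPM of Etv1, 13.8 of Etv4 and 19.6 of Etv5, against 103.9, 55.0 and 88.4 CPM in the control. Their log2 ratios were −1.67, −1.67 and −1.92, further from 0 than among dividing cells, and 14.5% of genes were called lower. The Emx1-Cre mutant had 87.7 CPM of Etv1, 48.9 of Etv4 and 40.1 of Etv5 in such cells. There only Etv5 was called lower, with a log2 ratio of −1.05 beside −0.23 for Etv1 and −0.15 for Etv4, and 35.8% of all genes were called lower. Etv4 in the Emx1-Cre astroglia was thus past the fold in dividing cells and short of it in the others, and the difference between these was not tested.

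Oligodendrocyte precursor-like cells, with Pdgfra and Sox10 among their markers, had lower Etv4 and Etv5 in both mutants. Etv5 was at 49.4 CPM (37.3 to 64.1) in the Emx1-Cre mutant and 26.7 (19.7 to 35.3) in the hGFAP-Cre mutant, against 88.6 (66.0 to 117) in the control. Etv4 was at 45.0 CPM (33.5 to 59.1) and 40.3 (31.6 to 50.6) in the mutants, against 81.7 (60.0 to 109) in the control. For both genes the control interval lay above those of the mutants, and for Etv5 in the hGFAP-Cre mutant the difference was 3.32-fold (2.20 to 5.02).

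Etv1 in the same cells was at 96.1 CPM (78.9 to 116) in the Emx1-Cre mutant, 67.5 (56.2 to 80.5) in the hGFAP-Cre mutant and 104 (79.6 to 134) in the control. The intervals of the Emx1-Cre mutant and the control overlap almost wholly. The log2 ratios of Etv1, Etv4 and Etv5 were −0.11, −0.79 and −0.78 in the Emx1-Cre mutant, where 21.9% of genes were called lower, and −0.59, −0.94 and −1.56 in the hGFAP-Cre mutant, where 21.7% were. Etv1 in the hGFAP-Cre mutant stood just past the fold, and it was short of it, at −0.57 to −0.41, in 9 of 15 alternative settings. Etv4 in that mutant was past the fold in 13 of 15, with values up to −0.37. There were 277 of these cells in the Emx1-Cre mutant, 251 in the hGFAP-Cre mutant and 66 in the control. The 7 oligodendrocyte markers summed to 331 CPM in the Emx1-Cre mutant, 2475 in the hGFAP-Cre mutant and 311.0 in the control, and the radial glia markers to 17083 CPM in Emx1-Cre, 7113.5 in hGFAP-Cre and 8036 in control cells. The part of either in the differences was not tested.

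Multipotent progenitor-like cells, marked by Egfr and Olig genes among others, could be compared only between the hGFAP-Cre mutant, with 127 cells, and the control, with 424, since the Emx1-Cre mutant had 4. Etv1 was at 71.8 CPM (55.3 to 91.6) in the hGFAP-Cre mutant and 122 (112 to 134) in the control. Etv4 was at 10.1 CPM from 9 UMIs against 34.5 CPM from 138 UMIs, and Etv5 at 33.6 CPM (22.7 to 48.0) against 86.8 (77.9 to 96.5). No interval of the mutant reached that of the control. The log2 ratios were −0.73, −1.39 and −1.25, and all 3 genes were called lower against a background of 18.4%.

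In the olfactory bulb interneuron lineage, marked by Dlx and Gad genes, Etv1 was the member with a clear level, and it was lower in both mutants. It was at 22.96 CPM (11.5 to 41.1, 11 UMIs in 116 cells) in the Emx1-Cre mutant and 54.6 (46.4 to 63.9, 550 cells) in the hGFAP-Cre mutant, against 104.5 (95.9 to 114, 972 cells) in the control. The 3 intervals lay apart, with log2 ratios of −1.97 against a background of 20.2% and −0.88 against 14.3%. Etv5 was at 14.6 and 9.74 CPM in the mutants against 17.6 CPM, log2 ratios of −0.21 and −0.62. It was called lower in the hGFAP-Cre mutant, but it passed the fold in only 9 of 15 alternative settings, with values up to −0.019. Etv4 was at 0 UMIs in the Emx1-Cre mutant, 1 UMI in the hGFAP-Cre mutant and 13 UMIs in the control.

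The class was made of different cells here too. Markers of cortical interneurons, such as Lhx6 and Sst, summed to 2194 CPM in the Emx1-Cre mutant, 2611 in the hGFAP-Cre mutant and 1033 in the control. Of the Emx1-Cre cells, 75 of 116 were in a cluster led by Dlx5 and Dlx6os1 in which Etv1 was at 23.9 CPM (10.3 to 47.2) in the Emx1-Cre mutant, 40.1 (30.03 to 52.4) in the hGFAP-Cre mutant and 56.1 (30.7 to 94.2) in the 33 control cells, with overlapping intervals for the control and either mutant. In the largest cluster, led by Dlx6os1 and Dlx5, Etv1 was at 58.4 CPM (45.5 to 73.8) in 300 hGFAP-Cre cells and 83.8 (74.5 to 93.9) in 820 control cells. These intervals lay apart, but the log2 ratio of −0.49 was short of the fold, which 17.9% of genes passed, and Etv5 was at 13.3 CPM in the hGFAP-Cre mutant and 13.6 in the control. In a cycling cluster led by Sp9 and Dlx2 it was at 96.5 CPM (66.8 to 135) in 38 hGFAP-Cre cells and 164 (144 to 186) in 119 control cells.

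Etv1 was lower in both mutants in deep-layer projection neuron-like cells. It was at 43.7 CPM (39.1 to 48.8, 691 cells) in the Emx1-Cre mutant and 58.5 (47.8 to 70.8, 128 cells) in the hGFAP-Cre mutant, against 188 (166 to 211) in the control. Etv5 was at 0.825 CPM from 6 UMIs and 3.34 CPM from 6 UMIs in the mutants, against 28.0 CPM from 41 UMIs in the control. The control intervals lay above those of both mutants for each gene. The control's 47 cells were under the 50 required for a ratio. The median cell had 9988 UMIs in the Emx1-Cre mutant and 13761 in the hGFAP-Cre mutant, against 32761 in the control. The deep-layer markers summed to 1813 CPM in the Emx1-Cre mutant, 1567 in the hGFAP-Cre mutant and 1527 in the control, but the upper-layer markers summed to 393 CPM in Emx1-Cre, 313 in hGFAP-Cre and 1028 in control cells, and the part of that in the gap was not tested.

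Etv5 had next to no UMIs in upper-layer projection neuron-like cells of both mutants. It had 0 UMIs in 979 Emx1-Cre cells, which allows up to 0.577 CPM, 3 UMIs in 2872 hGFAP-Cre cells (0.215 CPM), and 313 UMIs in 4417 control cells (10.6 CPM, 9.47 to 11.9). Against a floor of 3 counts in the library it was 18.4-fold lower in the Emx1-Cre mutant, with an exact interval from 14.9-fold up. In the hGFAP-Cre mutant it was 49.5-fold lower (16.8 to 241). The background of calls in this class was 20% in the Emx1-Cre mutant and 11.2% in the hGFAP-Cre mutant.

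Of the control's 313 UMIs, 218 lay in 550 cells of 1 cluster, led by Ntf3 and Nwd2, where Etv5 was at 26.45 CPM. That cluster was of like size in all libraries. It had 0 UMIs of Etv5 in 499 Emx1-Cre cells and 2 UMIs in 440 hGFAP-Cre cells, so that Etv5 was at least 31.0-fold lower in the Emx1-Cre mutant and 54.2-fold lower (14.8 to 450) in the hGFAP-Cre mutant. Etv1 in the same cluster was at 2.28 CPM in the Emx1-Cre mutant, 8.05 in the hGFAP-Cre mutant and 11.2 in the control. The share of all genes called lower in it was 16.6% in the Emx1-Cre mutant and 13.3% in the hGFAP-Cre mutant. In the other upper-layer clusters the control had 1.45 to 6.71 CPM of Etv5, under the level needed for a call.

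Over the whole upper-layer class Etv1 was at 3.08 CPM (1.76 to 5) in the Emx1-Cre mutant, 10.0 (8.43 to 11.8) in the hGFAP-Cre mutant and 13.1 (11.9 to 14.5) in the control. Its log2 ratio was −1.17 in the Emx1-Cre mutant, called lower, and −0.27 in the hGFAP-Cre mutant. Etv4 was at 0.192 CPM from 1 UMI in Emx1-Cre cells, 0.286 from 4 UMIs in hGFAP-Cre cells and 2.71 from 80 UMIs in control cells.

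**Figure D3:**
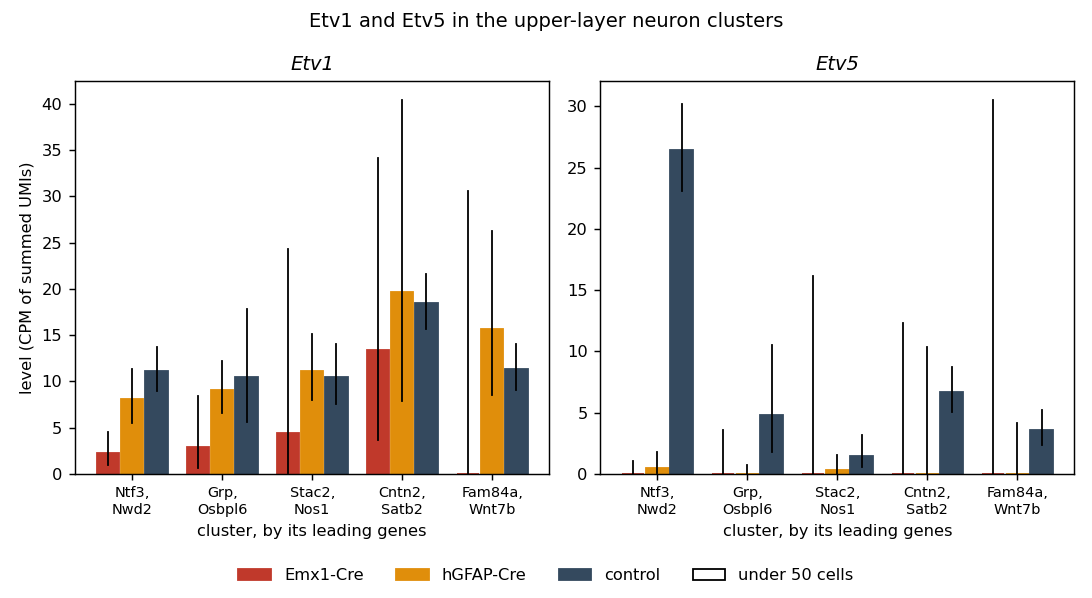
Level of Etv5 and Etv1 (CPM with exact Poisson 95% intervals) within each cluster of upper-layer projection neuron-like cells, per library. Etv5 stands out in the control's Ntf3 and Nwd2 cluster, at 26.45 CPM, where the Emx1-Cre library has 0 UMIs and the hGFAP-Cre library 2, while Etv1 is of like level in the hGFAP-Cre library and the control in most clusters.

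Intermediate progenitor-like cells of the excitatory lineage, with Eomes and Neurog2 as markers, had Etv1 at 6.42 CPM (4.36 to 9.12) in the Emx1-Cre mutant, 17.55 (15.3 to 20) in the hGFAP-Cre mutant and 33.5 (26.2 to 42.3) in the control. The 3 intervals lay apart, with log2 ratios of −1.75 in the Emx1-Cre mutant against a background of 18.6% and −0.77 in the hGFAP-Cre mutant against 14.3%. The hGFAP-Cre value ran from −1.97 to −0.019 over 14 alternative settings and passed the fold in 10. Cells with a UMI of either division gene were 41.5% of the class in the Emx1-Cre mutant, 44.0% in the hGFAP-Cre mutant and 75.8% in the control. Among these the log2 ratio was −1.47 in the Emx1-Cre mutant, called lower, and −0.42 in the hGFAP-Cre mutant, short of the fold. Etv4 and Etv5 were under 10 CPM in all libraries. In an unnamed cluster led by Cck and Nr4a3, Etv1 was at 5.46 CPM in the Emx1-Cre mutant, 18.5 in the hGFAP-Cre mutant and 21.4 in the control, from 7 control UMIs, with log2 ratios of −1.33 (background 20.8%) and −0.17 (background 20.7%). A cluster led by Calb2 and Tac2 had Etv5 at 0.592 CPM, 1 UMI, in the hGFAP-Cre mutant and 14.2 CPM, 12 UMIs, in the control, a log2 ratio of −1.78 against 19.5% of genes, while Etv1 was at 24.8 and 22.4 CPM. In a cluster led by Eomes and Sstr2 all 3 genes were under 10 CPM everywhere.

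Microglia arise outside the lineages of both Cre drivers, which makes microglia-like cells a comparison for differences between libraries as such. Etv5 was at 16.8 CPM (10.4 to 25.7) in the Emx1-Cre mutant, 28.0 (21.4 to 36.1) in the hGFAP-Cre mutant and 26.7 (21.1 to 33.3) in the control, with overlapping intervals. Etv1 was at 7.22 CPM (3.30 to 13.7) from 9 UMIs in the Emx1-Cre mutant, 15.4 (10.6 to 21.7) in the hGFAP-Cre mutant and 19.2 (14.5 to 24.9) in the control. The log2 ratios of Etv1 and Etv5 were −0.98 and −0.54 in the Emx1-Cre mutant, where Etv1 was called lower against a background of 29.2% but in only 11 of 15 alternative settings, and −0.24 and 0.06 in the hGFAP-Cre mutant, with no call and a background of 16.5%. In the microglial cluster present in all libraries, led by Gpr34 and Fcrls, Etv1 was at 14.3 CPM in Emx1-Cre, 16.1 in hGFAP-Cre and 19.2 in control cells and neither gene was called, where the share of genes called lower was 26.5% in Emx1-Cre and 15.6% in hGFAP-Cre microglia. The other microglial cluster, led by Rgs1 and Wfdc17, had 154 Emx1-Cre, 80 hGFAP-Cre and 0 control cells.

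Vascular cells were few. Endothelial cells also lie outside both Cre lineages, so endothelial-like cells are a comparison of the same kind as microglia-like cells. In endothelial-like cells Etv1 was at 19.7 CPM from 8 UMIs in the hGFAP-Cre mutant and 9.49 CPM from 15 UMIs in the control, the single call of a higher level (log2 ratio 0.77, against 15.5% of genes called higher), with overlapping intervals and the fold passed in 9 of 13 alternative settings. Etv5 had 0 UMIs in 53 hGFAP-Cre cells and 17 in 105 control cells. It was called lower (log2 ratio −1.66, against 16.7% of genes), past the fold in 13 of 13 alternative settings. Against a floor of 3 counts it was 1.45-fold lower, with an exact interval from 1.06-fold up. Mural-like cells had Etv1 at 47.6 CPM in the Emx1-Cre mutant, 58.9 in the hGFAP-Cre mutant and 65.7 in the control, with no ratio since the control had 36 cells. Ependymal-like cells, which line the ventricle, had at most 2.20 CPM of any of the 3 genes in either mutant. Cajal-Retzius-like cells had at most 2.34 CPM of any of them in any library, and no member could be called there.

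In all, 9 groups had the 50 cells needed for a ratio in the Emx1-Cre mutant and the control. Etv1 was called lower in 5, lay between the thresholds in 2 and was under 10 CPM in 2. Etv5 was called lower in 3, lay between the thresholds in 2 and was under 10 CPM in 4. Etv4 was called lower in 1, lay between in 1 and was under 10 CPM in 7. For the hGFAP-Cre mutant 12 groups could be compared, with 11.2% to 21.7% of all genes called lower. Of these groups Etv5 was called lower in 7, Etv1 in 5 and Etv4 in 3. Etv1 lay between the thresholds in 4 of the 12 groups and was called higher in 1, where 15.5% of all genes were called higher. Etv4 was under 10 CPM, and so without a call, in 9 of the 12 groups, Etv5 in 4 and Etv1 in 2. Some of these calls rested on the processing setting. Both sets of comparisons use the same control library, so an odd value in it would show in both.

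**Figure D4:**
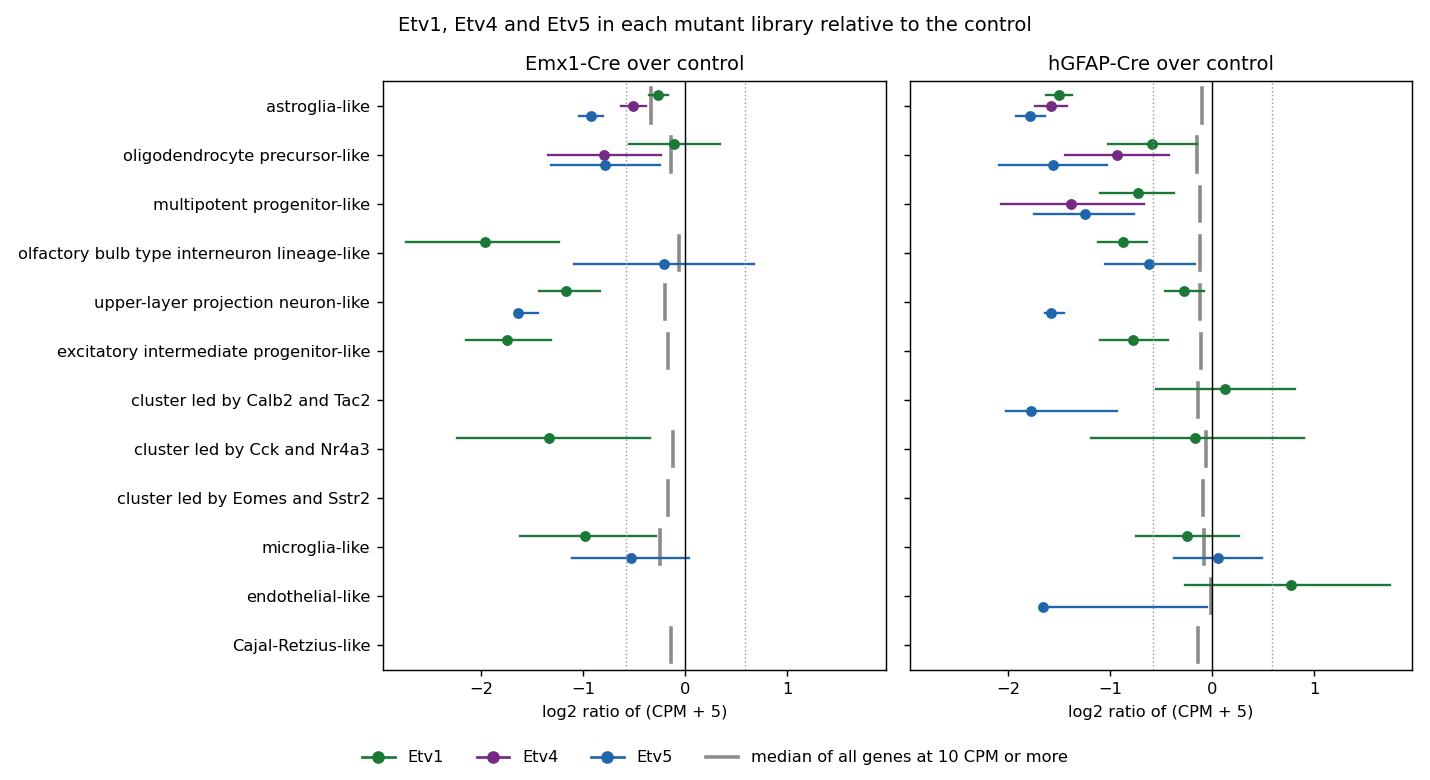
Log2 ratio of each mutant over the control for Etv1, Etv4 and Etv5 by cell group, with intervals for counting error, 5 CPM added to both sides; grey bars give the median of all genes in the comparison, dotted lines the 1.5-fold threshold, and no point is drawn where both libraries are under 10 CPM. In the hGFAP-Cre panel the astroglia-like values lie at −1.50 to −1.78, well below the median gene at −0.10, while in the Emx1-Cre panel they range from −0.27 to −0.92 around a median gene at −0.34.

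Genes of the same pathway were counted in astroglia-like cells from 8 lists, and the plot of list members gives each one's value. The ERK feedback inhibitors, which dampen the pathway that induces them, were counted first, and the difference between the mutants was not tested. Among all genes in these cells 7.61% were called higher in the Emx1-Cre mutant and 10.3% in the hGFAP-Cre mutant, beside the 31.9% and 15.5% called lower. Of 8 measured inhibitors 3 were called lower in the hGFAP-Cre mutant and none higher, with a median log2 ratio of −0.44 beside −0.10 for all genes. Spry2, a Sprouty inhibitor of receptor signalling, was at 98.5 CPM in the hGFAP-Cre mutant against 247 in the control, and Spry4 at 7.57 against 23.3. In the Emx1-Cre mutant 3 of 9 were called higher and 1 lower, with a median of 0.50 beside −0.34 for all genes. Spry1 was at 77.4 CPM in the Emx1-Cre mutant against 15.1 in the control (log2 ratio 2.04), Lrig1 at 66.9 against 27.3 and Dusp5 at 12.4 against 3.61, while Spred2 was at 17.8 against 34.1.

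The immediate early genes, the first to be transcribed after ERK activation and also after tissue dissociation, went both ways in both mutants. The background was again 31.9% of genes called lower and 7.61% higher in the Emx1-Cre mutant. For the hGFAP-Cre mutant it was 15.5% lower and 10.3% higher. Of 10 measured members 3 were called lower and 2 higher in the hGFAP-Cre mutant, with a median log2 ratio of −0.33. Egr1 was at 48.4 CPM in the hGFAP-Cre mutant against 557 in the control, Ier2 at 72.9 against 306 and Phlda1 at 162 against 49.9. In the Emx1-Cre mutant 4 of 11 were called higher and 3 lower, with a median of 0.30. Junb was at 552 CPM in the Emx1-Cre mutant against 169 in the control and Ier3 at 174 against 34.0, but Jun was at 306 against 865.

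Receptors and ligands that feed the pathway were measured in part. Beside them 31.9% of all genes were called lower and 7.61% higher in the Emx1-Cre mutant. The shares were 15.5% lower and 10.3% higher in the hGFAP-Cre mutant. Of 8 measured receptors, among 14 listed, 5 were called lower and none higher in the Emx1-Cre mutant, with a median log2 ratio of −1.32. Egfr was at 39.8 CPM in the Emx1-Cre mutant and 30.9 in the hGFAP-Cre mutant against 115 in the control, and Fgfr1, an FGF receptor, at 42.7 and 75.8 against 128. In the hGFAP-Cre mutant 3 of 8 were called lower and 1 higher, with a median of −0.09, and Ntrk2, the BDNF receptor, was at 754 CPM against 372. Of 6 measured ligands, among 15 listed, 4 were called lower and 1 higher in the Emx1-Cre mutant, with a median of −1.17, Nrg1 being at 11.5 CPM against 55.0 in the control. Among the ligands 1, Pdgfa, was called higher in the hGFAP-Cre mutant, at 34.4 CPM against 15.9, and none lower, with a median of −0.18.

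The RAS, RAF, MEK and ERK genes themselves were mostly within the fold. Of all genes in these cells 31.9% were called lower and 7.61% higher in the Emx1-Cre mutant. In the hGFAP-Cre mutant 15.5% were called lower and 10.3% higher. None of 16 measured members was called in the hGFAP-Cre mutant, with a median log2 ratio of −0.06, and 3 of 16 were called lower in the Emx1-Cre mutant, with a median of −0.42. Araf, which encodes a RAF kinase, was the one furthest from the control there, at 37.5 CPM against 68.3. Among 15 cell cycle genes 14 were called lower in the hGFAP-Cre mutant, with a median of −1.84 and Top2a at 51.2 CPM against 409. In the Emx1-Cre mutant 4 were called lower and 1 higher, with a median of −0.03 and Mki67 at 95.1 CPM against 206.

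Other ETS factors were lower in part. The share of all genes called lower in astroglia-like cells was 31.9% in the Emx1-Cre mutant and 15.5% in the hGFAP-Cre mutant. The median gene had log2 ratios of −0.34 and −0.10. In the Emx1-Cre mutant 4 of 8 were called lower, with a median log2 ratio of −0.68, and in the hGFAP-Cre mutant 2 of 8, with −0.30; none was called higher. Elk3, a ternary complex factor, was at 12.4 CPM in the Emx1-Cre mutant and 14.95 in the hGFAP-Cre mutant against 32.3 in the control. Erf, a repressor that ERK inactivates, was at 15.4 and 17.3 CPM against 33.5. Genes that repress the Etv genes or turn over their proteins gave 3 of 8 called lower in the Emx1-Cre mutant, with a median of −0.30, and 2 of 8 in the hGFAP-Cre mutant, with −0.21. Atxn1, whose protein is a partner of Capicua, was at 10.4 CPM in the Emx1-Cre mutant against 48.5 in the control, and Rfwd2 was at 34.9 and 38.2 CPM in the Emx1-Cre and hGFAP-Cre mutants against 56.1.

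Cic itself, the repressor of the Etv genes, was lower together with them. In astroglia-like cells it was at 16.6 CPM in the Emx1-Cre mutant and 15.1 in the hGFAP-Cre mutant, against 47.3 in the control. It was called lower in all 9 groups compared for the Emx1-Cre mutant (log2 ratios −1.38 to −0.67) and in 11 of 12 for the hGFAP-Cre mutant, down to −2.32, the exception being endothelial-like cells at 0.36. Those groups include microglia-like cells, where Cic was at 16.8 CPM in the Emx1-Cre mutant and 24.8 in the hGFAP-Cre mutant against 52.0 in the control. They also include Cajal-Retzius-like cells, where Cic was at 40.2 CPM in the Emx1-Cre mutant, against 15% of genes called lower, and 32.7 CPM in the hGFAP-Cre mutant, against 15.6%, with 67.2 CPM in the control. In the Eomes and Sstr2 cluster the background was 19.6% in the Emx1-Cre mutant and 13.4% in the hGFAP-Cre mutant. Cic was thus lower in cells with next to no Etv expression too.

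**Figure D5:**
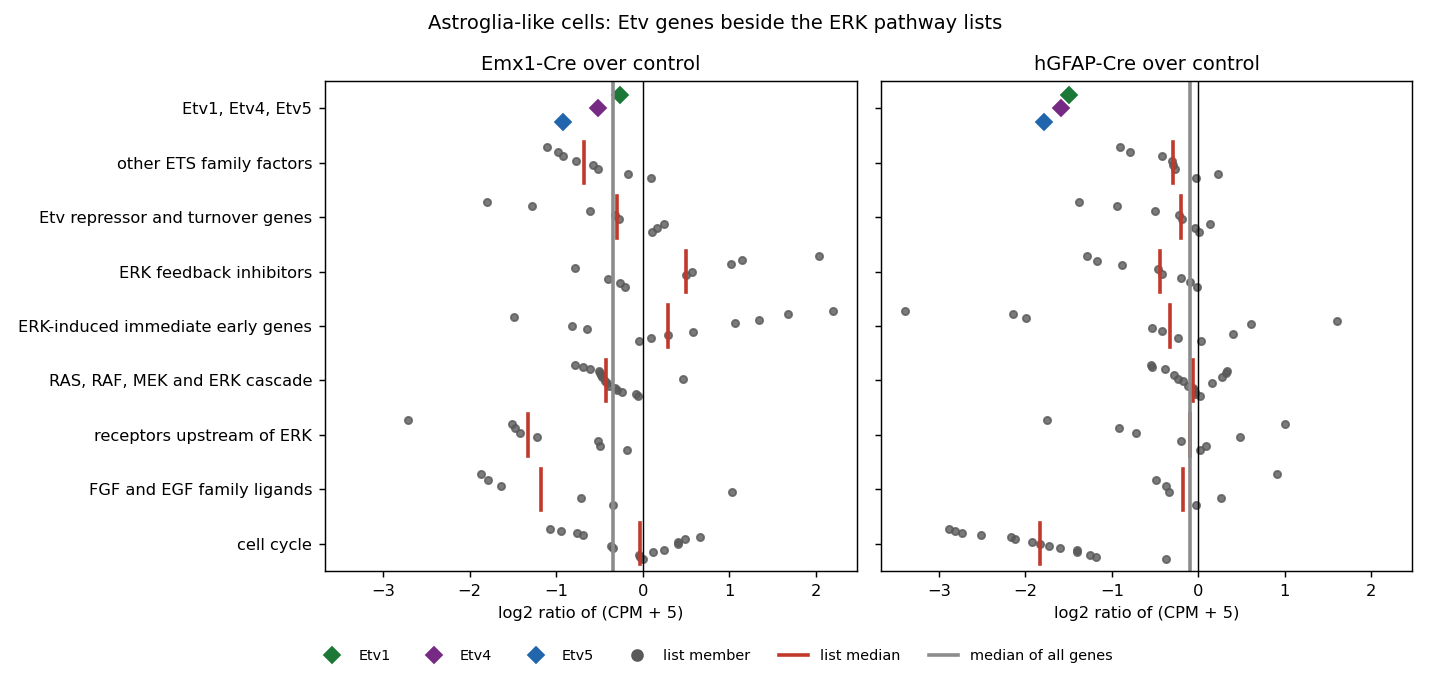
Log2 ratio of each mutant over the control in astroglia-like cells for the measured members of 8 gene lists, 5 CPM added to both sides. Diamonds are Etv1, Etv4 and Etv5, and dots are list members. Red lines give the list medians and the grey line the median of all genes. Cell cycle genes lie lowest in the hGFAP-Cre mutant, with a median of −1.84, and ERK feedback inhibitors lie above the median gene in the Emx1-Cre mutant, with a median of 0.50, and below it in the hGFAP-Cre mutant, with −0.44.

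Outside astroglia the feedback inhibitors were counted where the Etv genes stood out. In oligodendrocyte precursor-like cells none of 8 was called lower and 1 was called higher in the Emx1-Cre mutant, Spry1 at 168 CPM against 88.6 in the control, where 13.2% of all genes were called higher. The hGFAP-Cre mutant had 4 of 8 called lower, against 21.7% of all genes, with a median log2 ratio of −0.55 and Spry4 at 37.6 CPM against 88.6. In upper-layer projection neuron-like cells 5 of 6 were called lower in the Emx1-Cre mutant, against 20% of all genes, with a median of −0.95, and 2 of 6 in the hGFAP-Cre mutant, against 11.2%, with −0.46. Spred3 was at 1.54 CPM in the Emx1-Cre mutant and 3.15 in the hGFAP-Cre mutant against 11.4 in the control.

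The genes closest in pattern were found by Pearson's r of log2(CPM + 5) over 42 sums of cell group and library, among 10983 genes. The sums share their library and its depth, so r is a description only. For Etv1 they were Spon1 (r = 0.78), Etv5 (0.76), Spred1 (0.74), Trib2 (0.73) and Etv4 (0.71). Etv4 was closest to Polg (0.88), Bmp7 (0.87), Olig2 and Olig1 (both 0.86) and Phxr4 (0.85), and Etv5 to Etv4 (0.84), Olig2 (0.81), Olig1 (0.80), Polg and Phxr4 (both 0.79). Olig1 and Olig2, the transcription factors of the oligodendrocyte lineage, were thus near to Etv4 and Etv5 and not among the 5 nearest to Etv1.

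Detection of the members in the same cells was compared within astroglia at 3000 UMIs per cell. At least 1 of the 3 was detected in 39.9% of cells in the Emx1-Cre mutant, 17.5% in the hGFAP-Cre mutant and 50.8% in the control. In the control Etv1 was found in 29.0% of cells with Etv5 and 25.6% of cells without, with overlapping intervals, and the other pairs in the control and in the Emx1-Cre mutant overlapped as well. In the hGFAP-Cre mutant Etv5 was found in 11.4% (7.49% to 16.3%) of cells with Etv1 and 5.83% (4.88% to 6.90%) of cells without, intervals that lay apart, and Etv1 in 16.6% of cells with Etv5 and 8.74% of cells without. The pairs with Etv4 overlapped there, with Etv4 in 5.0% of cells with Etv1 and 3.51% without, and Etv5 in 5.75% of cells with Etv4 and 6.36% without. In that library the class joined the Prm1 cluster, at 27.5 CPM of Etv1 and 18.2 of Etv5, with the Has2 cluster, at 52.1 and 30.2 CPM, and the part of this mix in the pairing was not tested.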

How the data were processed

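The deposited files hold raw UMI counts per gene and called barcode, which the authors obtained from Cell Ranger 5.0.0, per the file headers, with genome build mm10, per the submitters' processing notes; other steps are not given in the sources used here. All values were whole numbers. Of 27998 gene identifiers 27645 matched GENCODE M21, which gave the coordinates. The shallowest barcode had 2644 UMIs in the Emx1-Cre mutant, 3065 in the hGFAP-Cre mutant and 500 in the control.

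Cells with at least 1000 genes and under 10% mitochondrial counts were kept, and predicted doublets (Scrublet in scanpy 1.11.5, expected rate 10%) were removed, 7.64% of Emx1-Cre, 8.71% of hGFAP-Cre and 4.44% of control cells. Log-normalised counts of 2000 variable genes gave 30 principal components, a graph of 15 neighbours and 31 Leiden clusters (leidenalg 0.10.2, resolution 1). The variable genes left out the Etv genes, their repressor and turnover genes, and the ETS, ERK pathway and immediate early genes. Mitochondrial, ribosomal, haemoglobin and Y-linked genes, Xist, Tsix and Prm1 were left out too, but other X-linked genes were not. No batch correction was applied. A cluster took the name of the marker list, of 19, with the most raised members (2-fold over other cells, a UMI in 25% of cells), with at least 3. It stayed unnamed where markers of another class outnumbered its own among its 10 leading genes, or where its cells were shallow and none of its own markers led. This gave 25 named clusters in 12 classes and 6 unnamed ones, called by their leading genes. The rule, and the joining of the astrocyte and radial glia lists, were chosen after the clusters were seen.

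Counts were summed per group and library, with exact Poisson 95% intervals. Shares of cells have exact Clopper-Pearson intervals, and a count of 0 is taken to allow 3 counts. Ratios need 50 cells in both libraries and have conditional exact intervals. With 1 library per genotype there was no test. Named genes are the members, Map2k1, Map2k2, Xist as a check, up to 4 members per list with the largest absolute log2 ratio, and the 5 genes of most like pattern. The members, the 8 gene lists and the marker lists were chosen with earlier results of these data known. Cic outside astroglia was added after its values were seen. The ratios and calls were tested on simulated counts with known changes.

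Alternatives were resolutions 0.5 and 2, each library clustered alone, cells called 1 by 1, naming by mean fold, doublets kept, 5% mitochondrial counts, 2000 genes per cell, pseudocounts of 1 and 20 CPM, TMM (edgeR 4.0.16) and median-of-ratios scaling (DESeq2 1.42.0), thinning to 3000 UMIs, cells without Mki67 or Top2a, clusters with 50 cells in both libraries, no filter and a filter of 50 CPM. Promoters are from RefSeq (GRCm38.p6). The work used igraph 0.11.9, pandas 2.3.3, scipy 1.17.1, matplotlib 3.10.9, numpy 2.4.6, scikit-learn 1.9.0, R 4.3.3 and Python 3.11.15.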

Additional observations from a re-analysis of the deposited data

How the results depend on the processing

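No paired analysis was possible because each genotype has 1 library, and for the same reason none was left out. Of the 110 alternative values of the main results 59 stayed close to the reported value, 51 moved beyond its counting interval (counts of genes by over 1.5 times) and none of those called reversed. The cause was not tested, except that scaling shifts all genes of a comparison alike.

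In Emx1-Cre astroglia the log2 ratio of Etv1 was 0.067 with TMM, 0.10 with median-of-ratios scaling and −0.14 with cells called 1 by 1. That of Etv4 was −0.19 and −0.16 with those scalings and −0.15 in cells without Mki67 or Top2a. It was −0.82 in clusters with 50 cells in both libraries, −0.83 with libraries clustered alone, −0.79 with cells called 1 by 1, −0.77 with naming by mean fold and −0.73 with doublets kept, each past the fold. That of Etv5 was −0.75 at a pseudocount of 20 CPM, −0.60 with TMM, −0.57 with median-of-ratios scaling, −1.05 in cells without Mki67 or Top2a and −1.13 with naming by mean fold.

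In hGFAP-Cre astroglia Etv1 was at −1.22 with a pseudocount of 20 CPM, −1.67 in cells without Mki67 or Top2a, −0.75 in clusters with 50 cells in both libraries, −1.82 at resolution 0.5, −1.69 with libraries clustered alone, −1.81 with cells called 1 by 1, −1.89 with naming by mean fold and −1.37 with 2000 genes. Etv4 was at −1.77 and −1.15 with pseudocounts of 1 and 20 CPM, −1.93 thinned, −0.65 in clusters with 50 cells in both libraries, −2.003 at resolution 0.5, −2.28 with libraries clustered alone, −2.32 with cells called 1 by 1, −2.37 with naming by mean fold, −1.90 with doublets kept and −1.74 under 5% mitochondrial counts. Etv5 was at −1.95 and −1.36 with those pseudocounts, −1.07 in clusters with 50 cells in both libraries, −2.11 at resolution 0.5, −2.08 with cells called 1 by 1 and −2.25 with naming by mean fold.

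The following 2 alternatives were chosen after seeing the data. With the astrocyte and radial glia lists kept apart, so that only radial glia-like clusters enter, Etv5 was at −0.77 in the Emx1-Cre mutant, and Etv1, Etv4 and Etv5 at −0.54, −0.53 and −0.96 in the hGFAP-Cre mutant, which ends the calls of Etv1 and Etv4. With the Dbx2 cluster joined to the class, Etv4 was at −0.75 in the Emx1-Cre mutant and −1.81 in the hGFAP-Cre mutant.

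At a filter of 50 CPM, 1023 genes were called lower in Emx1-Cre astroglia, against 2816 at 10 CPM, and 602 in hGFAP-Cre astroglia, against 1396. Of the feedback inhibitors 0 were then called lower in the Emx1-Cre mutant, where 2 were with no filter and 1 at 10 CPM, and 1 in the hGFAP-Cre mutant, against 3. Outside astroglia 333 of 387 alternative values stayed close, but some calls rest on the setting. In the hGFAP-Cre mutant Etv1 passed the fold in 10 of 14 settings in intermediate progenitors (short at −0.26 with cells called 1 by 1), 9 of 13 in endothelial-like cells, 6 of 15 in oligodendrocyte precursors and 14 of 15 in the olfactory bulb lineage, Etv4 in 13 of 15 in oligodendrocyte precursors and 12 of 13 in multipotent progenitors, and Etv5 in 9 of 15 in the olfactory bulb lineage. In the Emx1-Cre mutant Etv1 passed it in 11 of 15 in microglia-like and 14 of 15 in upper-layer cells, and Etv4 in 14 of 15 in oligodendrocyte precursors. Depth limits Etv4 outside glia and progenitors, where nearly all values are under 10 CPM, and every group with under 100 control cells.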

Other observations

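Values of the 3 genes that enter no comparison came from small or one-sided groups. A cluster led by Ogn and H19, with Gfap and Acta2 among its leading genes, had 148 Emx1-Cre, 842 hGFAP-Cre and 13 control cells. In its hGFAP-Cre cells Etv1 was at 7.68 CPM (5.80 to 9.98), Etv4 at 1.23 and Etv5 at 2.33, and in its Emx1-Cre cells Etv1 was at 5.67 CPM with 0 UMIs of Etv4 and of Etv5. A cluster led by Gdf15 and Cxcl10 had 37 hGFAP-Cre cells and 4 UMIs of the 3 genes in all. In the Emx1-Cre library Etv4 was at 19.3 CPM (11.6 to 30.1) and Etv5 at 21.3 (13.2 to 32.5) in 190 mural-like cells, above every neuronal class of that library, while the 36 control cells of that class had 0 and 2 UMIs.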
